A study of Mus musculus with 40 samples.

Results

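The genes described here encode the protein components of the cytosolic ribosome. They are the protein-coding genes of the count table whose mouse symbol starts with Rpl (large, 60S subunit) or Rps (small, 40S subunit), leaving out the S6 kinase genes (symbols starting with Rps6k), symbols of processed copies that end in -ps and a number, and Rps19bp1, which encodes a binding partner. This gave 85 genes of the 55487 in the table, of which 21897 were protein-coding. There were 52 genes of the 60S and 33 of the 40S subunit, spread over 19 chromosomes, with Rpl10, Rpl36a, Rpl39 and Rps4x on the X chromosome.

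PolyA+ RNA was sequenced from 40 bulk samples of about 200 sorted cells each (ES-astrocytes 20, ES-motor neurons 20), which the paper describes as taken after the 2 cell types had been grown together. Both were differentiated from 1 non-commercial mouse embryonic stem cell line from B6.Cg-Tg(Hlxb9-GFP)1Tmj/J mice, with eGFP under the Hb9 (Mnx1) promoter, by way of embryoid bodies given retinoic acid and smoothened agonist. The ES-astrocytes were expanded in the growth factors bFGF and EGF and then given forskolin, the differentiation factor the paper describes for its co-cultures. They were then exposed for 24 h to nothing further (control), to IL-1α and TNF-α (il1a+tnfa) or to complement C1Q and C5 (c1q+c5). Other cultures received IL1-β and IL-6 (il1b+il6) or TGF-β2 (tgfb2) for the same time. ES-motor neurons, sorted for eGFP, were laid onto such ES-astrocytes, so that a treatment given for an ES-motor neuron sample is the one its ES-astrocytes received. The paper states that the ES-astrocyte medium was kept at this step. It names a small risk that added mediators remained, which it holds to be likely negligible. Each of the 10 groups had 4 biological replicates, A to D. All cells thus come from 1 line, and the motor neurons are those in which the Hb9 promoter drove the reporter.

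The mRNAs of ribosomal proteins are among the most abundant of growing cells. Most of them begin with a run of pyrimidines at the 5′ end, through which their translation, more than their amount, follows growth signals such as mTOR. Neurons need ribosomes in the cell body, dendrites and axon, and mutations in several of the genes cause disorders of blood formation and development.

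Total counts ranged from 1510823 to 16054290 in the ES-astrocyte samples and from 6557 to 19717324 in the ES-motor neuron samples. In 5 ES-motor neuron samples the total was under 200000. These were c1q+c5 A with 6557, il1b+il6 B with 80315, il1a+tnfa D with 112775, il1a+tnfa A with 117344 and il1b+il6 D with 146775 counts. Of the 85 genes, 56 had a count in all 40 samples and 80 in at least 39, while c1q+c5 A had counts on 57 of them. Because each sample is bulk RNA, fewer cells of a type and less RNA per cell cannot be told apart.

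The labels of the cell types were checked against marker genes. The summed level of 9 motor neuron genes had a median of 2240 CPM (counts scaled by library size and TMM factors) in ES-motor neurons (1550 to 5350), with Slit2 most often the most abundant, and of 230 in ES-astrocytes (124 to 452). The 2 ranges did not overlap. For 11 astrocyte genes the median was 1860 CPM in ES-astrocytes (632 to 3080), with Fabp7 most often the most abundant, and 360 in ES-motor neurons (0 to 733), where Sox9 was. For 9 general neuron genes the median was 14900 CPM in ES-motor neurons (5340 to 21800) and 3500 in ES-astrocytes (2550 to 5290), above the 1860 of the astrocyte genes there, and Gap43 was most often the most abundant in both. Of the genes that mark mature astrocytes, Aldh1l1 and Aqp4 had 0 counts in all 40 samples, and Gfap had 1 count, in ES-motor neuron control B. The paper also counts Slc1a2 and Cd44 among mature astrocytic genes. Cd44 was among the 6 of 7 tested astrocyte genes called lower in ES-motor neurons over 5 treatments. No value is given here for Slc1a2.

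The ribosomal protein genes together took 1.12% to 3.65% of all counts of a sample. In the ES-astrocyte controls the shares of replicates A to D were 3.61%, 2.42%, 1.78% and 2.55%, and in the ES-motor neuron controls 1.64%, 2.23%, 1.12% and 2.05%. The control ranges overlapped, since ES-astrocyte replicate C lay below ES-motor neuron replicates B and D. The lowest share of all samples was that of ES-motor neuron control C (Wilson 95% interval 1.08% to 1.16%) and the highest that of ES-astrocyte c1q+c5 D (3.64% to 3.67%). In ES-motor neuron c1q+c5 A, the sample with 6557 counts, the share was 2.65% with an interval of 2.29% to 3.07%. Intervals cover counting error only.

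With il1a+tnfa the shares of A to D were 2.45%, 2.99%, 2.03% and 2.93% in ES-astrocytes and 2.14%, 2.80%, 1.72% and 2.63% in ES-motor neurons. With c1q+c5 they were 2.42%, 2.95%, 2.54% and 3.65% in ES-astrocytes and 2.65%, 2.21%, 2.06% and 2.15% in ES-motor neurons. In both treatments the ranges of the cell types overlapped. With c1q+c5 this rested on ES-motor neuron A, the sample with 6557 counts, as the other 3 lay below the lowest ES-astrocyte sample. With il1b+il6 the shares were 2.40%, 2.60%, 1.39% and 2.96% in ES-astrocytes and 2.89%, 1.87%, 1.22% and 2.0% in ES-motor neurons, and with tgfb2 they were 3.39%, 2.70%, 2.0% and 2.53% against 1.54%, 1.46%, 1.57% and 2.23%. The median share was lower in ES-motor neurons in each of the 5 treatments, by a log2 ratio of medians of -0.43 in control, -0.17 with il1a+tnfa, -0.33 with c1q+c5, -0.37 with il1b+il6 and -0.75 with tgfb2, and no treatment separated the cell types without overlap.

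**Figure D1:**
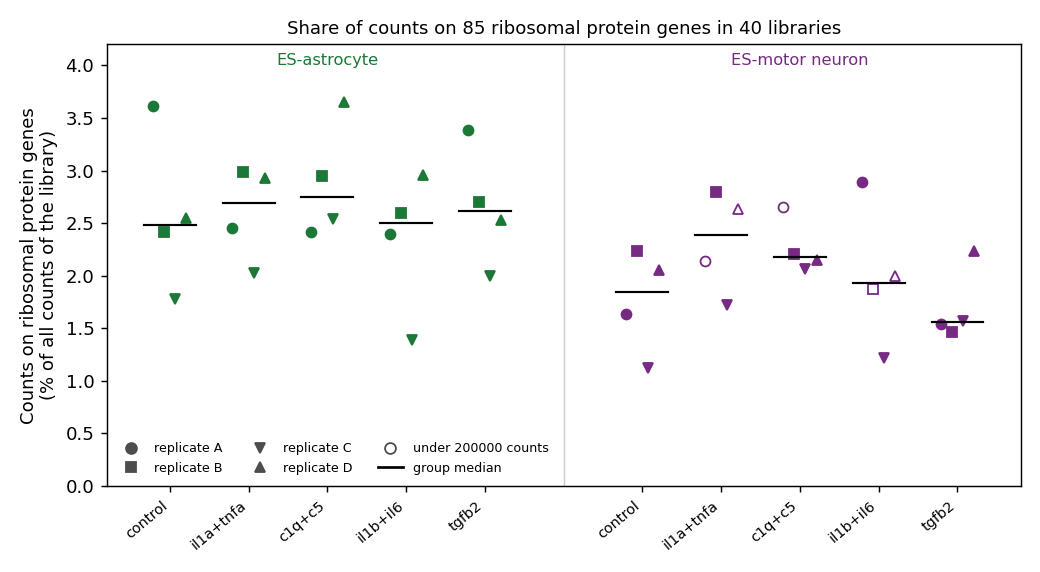
Share of all counts on the 85 ribosomal protein genes (percent, y axis) in each of 40 samples by treatment and cell type, with replicate letters as symbols, samples under 200000 counts as open symbols and group medians as bars. Samples ran from 1.12% (ES-motor neuron control C) to 3.65% (ES-astrocyte c1q+c5 D), and the cell types overlapped in each treatment.

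Replicate letter C had the lowest share in 8 of the 10 groups. Its 10 samples had a median of 1.75%, against 2.44% for letter A, 2.51% for B and 2.54% for D. Each group had 1 sample of each letter. The paper ties each replicate of ES-derived cells to its own vial of ES cells, but does not say whether samples of the same letter in different groups came from the same vial or culture. Within a cell type the relation of the share to depth was weak. Over the 20 ES-astrocyte samples, Pearson's r with log10 total counts was -0.05 and Spearman's rho -0.038 (r 0.256 without the 2 farthest samples). Over the 20 ES-motor neuron samples r was -0.141 and rho -0.024 (r 0.24 and rho 0.279 in the 15 with at least 200000 counts). With the number of genes counted, r was 0.514 and rho 0.475 in ES-astrocytes. In ES-motor neurons these were 0.023 and 0.088 (0.469 and 0.406 in the 15). The share was lower where the 100 most abundant genes took more of the counts, with r -0.707 and rho -0.684 in ES-astrocytes and r -0.553 and rho -0.489 in ES-motor neurons. Since both are shares of the same total, these values are descriptions.

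The division of ribosomal protein counts between the subunits varied less than their sum. The 40S genes held 41.9% to 51.3% of the ribosomal protein counts of a sample, with group medians from 46.3% (ES-motor neuron il1b+il6) to 49.1% (ES-astrocyte c1q+c5). In each treatment the ranges of the cell types overlapped. ES-astrocyte control A stood apart from the other ES-astrocyte samples, with 43.6% on 40S genes. It had 1.12% of all counts on genes of mitochondrial DNA against 3.74%, 3.87% and 3.53% in controls B, C and D. The 100 most abundant genes took 18.7% of its counts against 37.8%, 33.3% and 35.7%. Its summed astrocyte genes were at 632 CPM against 3080, 2340 and 2880. In ES-astrocyte c1q+c5 D, the sample with the highest share of ribosomal protein counts, they were at 821. The relation of that sum to the share was not tested.

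To set levels of different genes side by side, CPM was divided by the annotated exon length, so the order rests on that length too. It ran from 374 bases for Rps27rt to 6270 for Rps15a. Rps3, with 4483 bases, had the highest median CPM among ES-astrocyte samples (1550) but rank 12 per kilobase. Whether these lengths match the mRNAs present was not tested. By the median CPM per kilobase in each cell type, high levels in both were those of Rplp1, a protein of the stalk that recruits elongation factors (1230 in ES-astrocytes, 889 in ES-motor neurons), and Rps15 (853 and 703). The lowest of those counted were Rps27rt, a single-exon gene on chromosome 9 (5.39 and 3.41), Rpl7l1 (17.3 and 7.09) and Rps15a (21.5 and 12.9). Rpl10l, known from testis, had no count at all, and Rpl39l and Rpl3l had 1 count each over the 40 samples. These 3 genes failed the filter on low counts in every comparison and their medians were 0. Rps27rt had 435 counts in 33 samples.

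Within a cell type, most pairs of the genes had a correlation above 0 from sample to sample. Over the 3240 pairs of 81 genes, the median correlation of log2 CPM was 0.40 over the 20 ES-astrocyte samples, with 79.1% of pairs above 0, and 0.57 over the 15 ES-motor neuron samples of at least 200000 counts, with 90.2% above 0. Against the mean of the other genes, the lowest r in ES-astrocytes were those of Rpl5 (-0.36), Rpl7a (-0.35) and Rpl7 (-0.26), and in ES-motor neurons those of Rpl4 (-0.25), Rpl7l1 (-0.24) and Rpl7a (-0.15). All pairs share the same samples and scaling factors. Pairs of other genes were not measured in this way, so these values have no reference.

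Exon bases are shared with another gene on the same strand for 28 of the 85 genes, with a gene on the other strand for 19, and with a small nucleolar RNA gene for 17. A further 307 entries of the table are pseudogene copies of ribosomal protein genes. How the counting treated strands and reads with several matches is not given in the sources used here, so the levels of these genes are uncertain to that extent.

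The comparison of ES-motor neurons with ES-astrocytes asked how the cell types differ when both come from 1 line. In the controls alone, 4 samples against 4, ribosomal protein genes lay mostly lower in ES-motor neurons, but none passed the test. The log2 fold change had a median of -0.53 over the 81 genes tested against -0.20 over all 10199, and ran from -1.18 (Rps20) to 0.59 (Rpl22l1). It was below 0 for 75 (92.6%), against 58.3% of all genes. By edgeR, 0 of 81 were called at an adjusted p of 0.05, where 0.569% of all genes were called higher and 1.67% lower. At an unadjusted p under 0.05 there were 2, Rplp0 and Rps2 (2.47%), against 1084 of all genes (10.6%). DESeq2 and limma-voom each called 0, where they called 769 and 451 of all genes. With the ranges of the 4 and 4 samples taken alone, 4 genes (Rpl7, Rps3a1, Rps4x and Rps9) were lower in ES-motor neurons without overlap and 0 were higher, against 6.26% and 4.46% of all genes. The median log2 fold change was -0.20 without ES-motor neuron control C.

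Over all 5 treatments, 20 samples against 20 with treatment in the fit, 28 of the 82 genes tested were called lower in ES-motor neurons and 0 were called higher, where 13.2% of all 13227 genes were called lower and 5.45% higher. These were 15 genes of the 60S and 13 of the 40S subunit. At an unadjusted p under 0.05 there were 48 (58.5%), against 3762 of all genes (28.4%). DESeq2 called 36 (43.9%), all lower, where it called 1705 of 14239 genes lower and 808 higher. By limma-voom 27 were called lower and Rpl22l1 higher, but there the balance over all 13227 genes was turned, with 2566 higher and 1224 lower, against 721 and 1751 by edgeR. The median log2 fold change was -0.39 over the ribosomal protein genes and -0.21 over all genes, and 91.5% of the former lay below 0 against 60.5% of the latter. With other scalings the median over the ribosomal protein genes was -0.45 (DESeq2, RLE or total counts) and -0.34 (limma-voom). No gene of the 28 reached a log2 fold change of 1 in size, so that 0 were called once that limit was added, where 1460 of all genes were called lower and 511 higher. The median CPM was lower in ES-motor neurons in each of the 5 treatments for 48 genes (58.5%), against 19.2% of all genes tested.

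The number called moved with the samples used. Without the 5 ES-motor neuron samples under 200000 counts it was 8, of which 7 were lower and among the 28, and the other was Rpl22l1, higher. In that fit 8.54% of the ribosomal protein genes tested were called lower against 10.4% of all 15179 genes. The share was thus no longer above that of all genes. The median log2 fold change was -0.31 over the ribosomal protein genes and -0.11 over all genes. The distance between these medians was -0.20, against -0.19 with all samples. Leaving out 1 sample at a time gave 12 to 36 called genes. The share called lower ran from 13.4% to 43.9% over these fits, against 11.8% to 14.5% for all genes. It was 13.4% against 11.8% without ES-astrocyte tgfb2 A and 14.6% against 12.4% without ES-astrocyte c1q+c5 D. The number called in either direction was 16 without ES-astrocyte control A, 12 without ES-astrocyte tgfb2 A and 18 without ES-astrocyte control D. This number was 18 without ES-astrocyte il1a+tnfa D, 13 without ES-astrocyte c1q+c5 D and 16 without ES-astrocyte il1b+il6 D. On the side of the ES-motor neurons it was 18 without control A, 17 without tgfb2 A, 17 without tgfb2 B, 17 without control C, 17 without il1b+il6 C and 16 without tgfb2 C. The same 10 genes were called in all 40 of these fits: Rpl12, Rpl35a, Rpl36a, Rpl7l1, Rplp0, Rps16, Rps2, Rps20, Rps27l and Rps9. Of these, 7 were called in each alternative that kept the threshold on adjusted p alone, namely Rpl12, Rpl36a, Rplp0, Rps2, Rps20, Rps27l and Rps9. Index primers differed between the cell types throughout (S337 and S339 against S338 and S340), so that primer and cell type cannot be told apart.

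**Figure D2:**
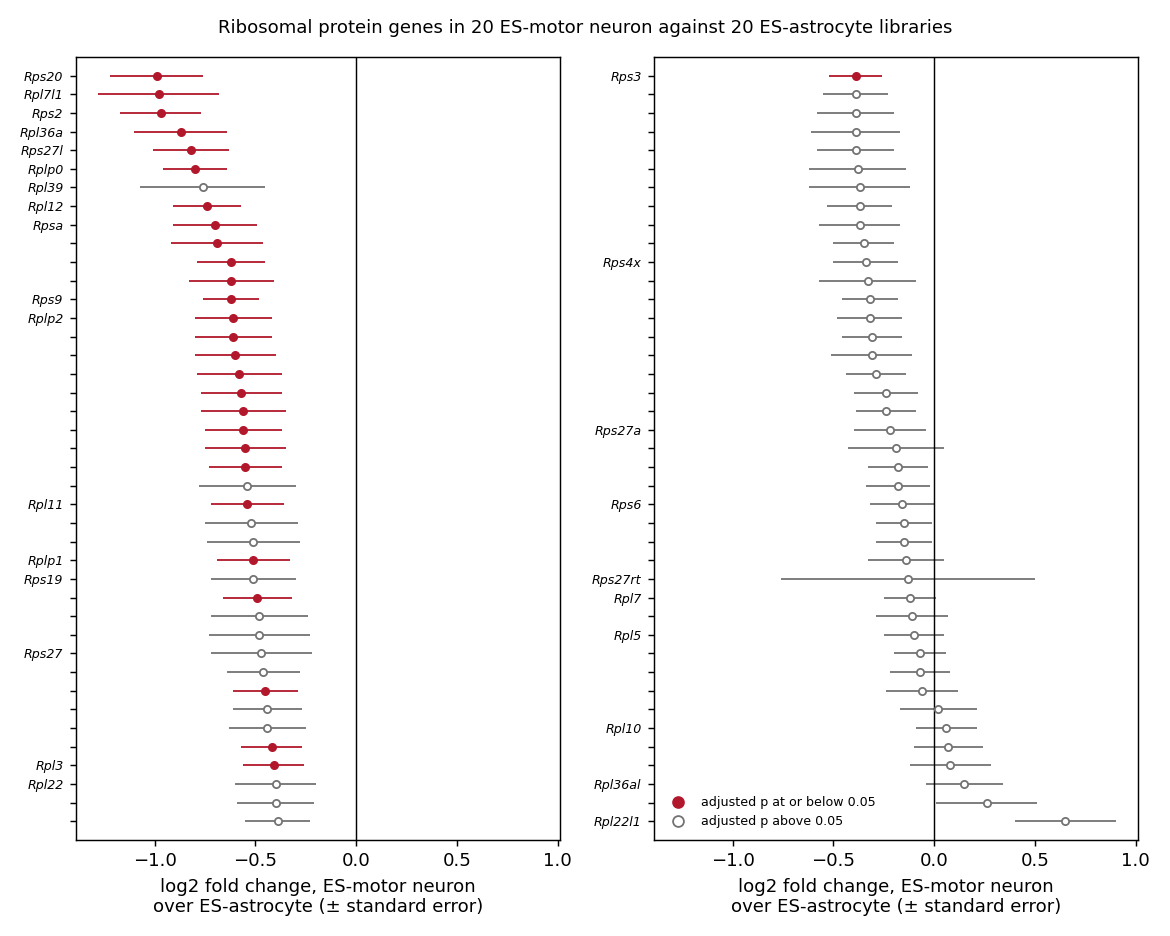
Log2 fold change of ES-motor neurons over ES-astrocytes for each of 82 ribosomal protein genes (x axis, points with standard error, 20 samples a side over 5 treatments), filled red where the adjusted p was at or below 0.05, with labels for a set of genes discussed in the text. The 28 red genes all lie below 0, from -0.99 (Rps20) to -0.39 (Rps3), and Rpl22l1 lies highest at 0.65.

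The strongest call was Rplp0, the base of the stalk, on chromosome 5 (ENSMUSG00000067274). In the ES-astrocyte controls its CPM in A to D was 1040, 329, 658 and 578, and in the ES-motor neuron controls 281, 393, 223 and 286. ES-astrocyte control B fell within the ES-motor neuron range and the other 3 lay above it. With il1a+tnfa the values were 520, 971, 632 and 518 in ES-astrocytes against 563, 482, 332 and 269, and with c1q+c5 502, 720, 565 and 553 against 405, 339, 280 and 363. The c1q+c5 ranges did not overlap, although the 405 of ES-motor neuron A rests on a sample of 6557 counts. With il1b+il6 they were 424, 559, 378 and 486 against 600, 158, 395 and 187, and with tgfb2 928, 722, 415 and 622 against 224, 356, 479 and 310. ES-motor neuron il1b+il6 A was the highest of its cell type and exceeded each ES-astrocyte sample of that treatment. Over all treatments the log2 fold change was -0.80 (SE 0.16, 20 samples a side, adjusted p 0.000125), with 18 of 20 ES-motor neuron samples below the ES-astrocyte median of 562.

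The other stalk proteins, Rplp1 and Rplp2, bind elongation factors as dimers on Rplp0. Rplp1 ran from 218 over a median of 613 to 946 CPM in ES-astrocytes and from 96.2 over 444 to 694 in ES-motor neurons. Rplp2 ran from 90.6 over 213 to 391 in ES-astrocytes and from 30.8 over 146 to 269 in ES-motor neurons. For both genes most ES-motor neuron samples (17 and 18 of 20) were below the ES-astrocyte median, and the lowest was control C. The log2 fold change was -0.51 (SE 0.18, adjusted p 0.0367) for Rplp1 and -0.61 (SE 0.19, adjusted p 0.0173) for Rplp2. Rplp2 was no longer called without ES-astrocyte tgfb2 A (-0.50) or without ES-astrocyte c1q+c5 D (-0.49), and Rplp1 was called in 24 of the 40 fits that left out 1 sample, at -0.58 to -0.43. Neither was called without the 5 samples under 200000 counts, at -0.45 and -0.50.

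Among the 40S proteins, Rps2 and Rps9, both near the mRNA entry channel, had the smallest p. Rps2 had 348, 187, 264 and 151 CPM in the ES-astrocyte controls and 102, 176, 61.6 and 116 in the ES-motor neuron controls. The control ranges overlapped, with ES-motor neuron B above ES-astrocyte D. Over all treatments it ran from 130 over a median of 205 to 419 in ES-astrocytes and from 0 over 114 to 258 in ES-motor neurons, the 0 being in c1q+c5 A, where 1 count gives 67.6 CPM. In ES-motor neurons 19 of 20 samples lay below the ES-astrocyte median and 15 below the lowest ES-astrocyte sample, and the log2 fold change was -0.97 (SE 0.20, adjusted p 0.000179). Its exons share bases with Snora64 and, on the other strand, Snhg9.

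Rps9 varied least among ES-astrocytes of the genes shown here, from 460 over a median of 626 to 758 CPM. In ES-motor neurons it ran from 119 over 395 to 646, with control C lowest and il1b+il6 A highest. In the controls the values were 742, 651, 614 and 644 against 322, 485, 119 and 510, which did not overlap. The log2 fold change over all treatments was -0.62 (SE 0.14, adjusted p 0.000524), and 13 of 20 ES-motor neuron samples lay below the lowest ES-astrocyte sample. Rps20, of the 40S head and named after its values were seen, had the lowest fold change of all 82 genes at -0.99 (SE 0.23, adjusted p 0.00123), with a median of 167 CPM in ES-astrocytes against 89.7 in ES-motor neurons.

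**Figure D3:**
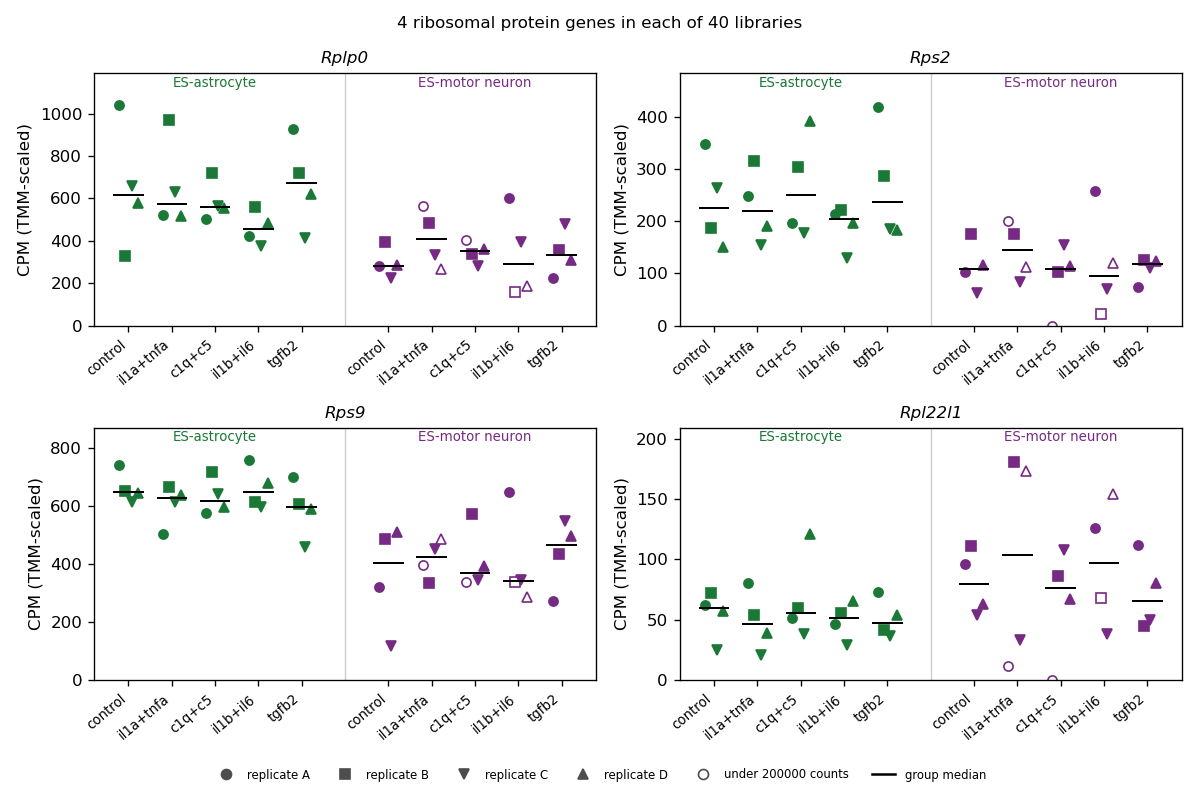
CPM scaled by TMM factors (y axis) of Rplp0, Rps2, Rps9 and Rpl22l1 in each of 40 samples by treatment and cell type, with replicate letters as symbols, samples under 200000 counts as open symbols and group medians as bars. Rplp0, Rps2 and Rps9 have lower medians in ES-motor neurons in each treatment and Rpl22l1 higher ones.

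Rpsa, a 40S protein also known as the laminin receptor, had 420, 109, 142 and 119 CPM in the ES-astrocyte controls and 87.9, 128, 80.8 and 67.3 in the ES-motor neuron controls. ES-astrocyte control A was the highest of all samples, and ES-motor neuron B exceeded ES-astrocytes B and D. Its log2 fold change over all treatments was -0.70 (SE 0.21, adjusted p 0.0103), and it was no longer called without ES-astrocyte control A (-0.54), the samples of letter C (-0.67) or the 5 samples under 200000 counts (-0.60). Rps6, the substrate of S6 kinase, ran from 167 over a median of 307 to 381 CPM in ES-astrocytes and from 0 over 257 to 423 in ES-motor neurons. The ranges overlapped almost fully, and the log2 fold change of -0.16 (SE 0.16, adjusted p 0.573) became 0.03 without the 5 samples under 200000 counts.

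Rps19, the gene most often mutated in Diamond-Blackfan anaemia, ran from 108 over 361 to 697 CPM in ES-astrocytes and from 85 over 244 to 551 in ES-motor neurons. Its log2 fold change of -0.51 (SE 0.21, adjusted p 0.0814) was not called, but was with letters as replicate block (-0.49), without ES-astrocyte il1b+il6 C (-0.57) and without ES-motor neuron il1b+il6 A (-0.64). Rps27a, which is made as a fusion with ubiquitin, ran from 93.2 over 192 to 387 against 35.5 over 166 to 318. The cell types overlapped over most of that range, and the log2 fold change of -0.22 (SE 0.18, adjusted p 0.472) was not called.

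Rpl5 and Rpl11 join 5S rRNA in the particle that binds Mdm2 when ribosome assembly stalls. Rpl11 ran from 81.3 over 190 to 394 CPM in ES-astrocytes and from 46.2 over 138 to 206 in ES-motor neurons, with 18 of 20 ES-motor neuron samples below the ES-astrocyte median. Rpl5 ran from 244 over 371 to 505 in ES-astrocytes and from 67.6 over 339 to 654 in ES-motor neurons, where tgfb2 C was the highest of all samples. Of the pair, Rpl11 was called at -0.54 (SE 0.18, adjusted p 0.0292) and Rpl5 was not, at -0.10 (SE 0.15, adjusted p 0.756). The difference between the 2 genes was not tested, and Rpl11 was called in 24 of the 40 fits that left out 1 sample, at -0.60 to -0.39, and not without the 5 samples under 200000 counts (-0.46). Rpl5 was at 0.11 without those samples.

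Of the 4 X-linked genes, Rpl36a was called lower. It ran from 35.4 over 72.4 to 175 CPM in ES-astrocytes and from 0 over 42.8 to 79.1 in ES-motor neurons, at a log2 fold change of -0.87 (SE 0.23, adjusted p 0.00361). Rpl39, which lines the exit tunnel, ran from 13.2 over 49.4 to 97.8 against 0 over 24.5 to 92.0. Its fold change of -0.76 (SE 0.31, adjusted p 0.086) was close to that of Rpl36a but not called, except without ES-motor neuron il1b+il6 A (-1.02) and by DESeq2 and limma-voom. Rps4x ran from 168 over 245 to 370 against 0 over 184 to 408, at -0.34 (SE 0.16, adjusted p 0.15), and was called by DESeq2 (-0.38), with RLE scaling (-0.40) and without ES-motor neuron il1a+tnfa B (-0.43), while it was at -0.13 without the 5 samples under 200000 counts. Rpl10, which joins the 60S subunit last, ran from 123 over 233 to 313 against 67.6 over 224 to 520, at 0.06 (SE 0.15, adjusted p 0.857), at -0.01 to 0.15 with 1 sample left out and at 0.22 without the 5 samples under 200000 counts. Differences among the 4 genes were not tested.

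Several ribosomal proteins have a second gene. Rpl22l1 had 62.6, 72.2, 25.2 and 57.6 CPM in the ES-astrocyte controls and 96.0, 111, 53.9 and 63.5 in the ES-motor neuron controls. It was the only gene whose median was higher in ES-motor neurons in all 5 treatments, although the control ranges overlapped. Its partner Rpl22 ran from 28.1 over 118 to 238 in ES-astrocytes and from 0 over 82.1 to 130 in ES-motor neurons. Per kilobase, Rpl22 was at 40.6 and Rpl22l1 at 27.2 in ES-astrocytes, and at 28.2 and 37.3 in ES-motor neurons. In median CPM, Rpl22 lay above Rpl22l1 in both cell types, at 118 against 54.0 and 82.1 against 74.2. The order of the pair in ES-motor neurons thus depended on the annotated exon lengths, 2911 bases for Rpl22 and 1989 for Rpl22l1.

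Neither gene of the Rpl22 pair was called. The log2 fold change was 0.65 (SE 0.25, adjusted p 0.0598) for Rpl22l1 and -0.40 (SE 0.20, adjusted p 0.182) for Rpl22. Rpl22l1 was called higher in 12 of the 40 fits that left out 1 sample: from the ES-astrocytes il1a+tnfa A (0.71), tgfb2 A (0.78), control B (0.71), c1q+c5 D (0.82) or tgfb2 D (0.69), and from the ES-motor neurons il1a+tnfa A (0.71), c1q+c5 A (0.70), tgfb2 B (0.72), il1a+tnfa C (0.71), il1b+il6 C (0.73), tgfb2 C (0.70) or c1q+c5 D (0.71). It was also called by limma-voom (0.64), with letters as replicate block (0.69) and without the 5 samples under 200000 counts (0.70). Whether the genes of a pair differ in their fold change was not tested.

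Rpl36al, the autosomal partner of Rpl36a, ran from 44.2 over 107 to 186 CPM in ES-astrocytes and from 0 over 121 to 208 in ES-motor neurons, at 0.15 (SE 0.19, adjusted p 0.69). Per kilobase it lay above Rpl36a in both cell types, at 79.3 against 43.8 in ES-astrocytes and 89.6 against 25.9 in ES-motor neurons. Of Rps27 and its partner Rps27l, a target of p53, Rps27l was called lower and Rps27 was not. Rps27l ran from 204 over 389 to 592 in ES-astrocytes and from 0 over 246 to 400 in ES-motor neurons, at -0.82 (SE 0.19, adjusted p 0.00123), and Rps27 ran from 58.8 over 213 to 308 against 0 over 149 to 303, at -0.47 (SE 0.25, adjusted p 0.215). The third gene, Rps27rt, did not exceed 8.29 CPM, and its fold change of -0.13 (SE 0.63, adjusted p 0.933) changed sign with DESeq2 (0.05), limma-voom (0.63) and without the 5 samples under 200000 counts (0.23).

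Rpl7l1, which acts in making the 60S subunit, ran from 13.1 over 60.4 to 95.4 CPM in ES-astrocytes and from 0 over 24.8 to 67.6 in ES-motor neurons. It was called lower at -0.98 (SE 0.30, adjusted p 0.0139), but not without the 5 samples under 200000 counts (-0.83). Its partner Rpl7 was at -0.12 (SE 0.13, adjusted p 0.602). Rpl3, at the peptidyl transferase centre, was at -0.41 (SE 0.15, adjusted p 0.0394) and was called in 10 of the 40 fits that left out 1 sample, at -0.45 to -0.32. Without the 5 samples under 200000 counts it was at -0.27 and not called. Its muscle partner Rpl3l failed the filter on low counts and so was not among the 82 genes tested here, and neither were Rpl10l and Rpl39l.

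The stimuli were compared with the control within each cell type, and these comparisons share the 4 control samples of their cell type. No ribosomal protein gene was called in any of them. In ES-astrocytes the median log2 fold change over the genes was -0.00 with il1a+tnfa (all genes -0.08), 0.12 with c1q+c5 (-0.07), -0.07 with il1b+il6 (-0.07) and 0.03 with tgfb2 (-0.06). By edgeR 0 of 81 were called with il1a+tnfa, 0 of 82 with c1q+c5, 0 of 81 with il1b+il6 and 0 of 81 with tgfb2, each where 0% of all genes were called. At an unadjusted p under 0.05 there were 0 ribosomal protein genes in each of the 4, against 93, 106, 119 and 136 of all genes, and DESeq2 and limma-voom called 0 of them. DESeq2 called 21, 37, 57 and 58 of all genes.

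The ES-astrocyte fold changes ran from -1.14 (Rpl14) to 0.42 (Rpl36al) with il1a+tnfa, from -0.82 (Rpl7l1) to 0.83 (Rps28) with c1q+c5, from -1.36 (Rpl14) to 0.43 (Rps29) with il1b+il6 and from -1.05 (Rpl7l1) to 0.56 (Rpl17) with tgfb2. Rpl14, singled out after its values were seen, had 814, 212, 99.4 and 141 CPM in the controls, 116, 247, 91.6 and 106 with il1a+tnfa and 114, 159, 74.8 and 141 with il1b+il6. Control A was far above every other ES-astrocyte sample. Single samples set the direction of the medians. With c1q+c5 the median was -0.04 without control C, -0.02 without c1q+c5 D and 0.32 without control A, and leaving out 1 sample gave -0.14 to 0.13 with il1a+tnfa, -0.22 to 0.15 with il1b+il6 and -0.10 to 0.14 with tgfb2.

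In ES-motor neurons the median log2 fold change was 0.36 with il1a+tnfa (all genes 0.03), 0.26 with c1q+c5 (-0.06), 0.10 with il1b+il6 (-0.01) and -0.05 with tgfb2 (-0.00). The distance to all genes differed between fits. With DESeq2 the medians were 0.37 (all genes 0.32), 0.26 (0.20), 0.16 (0.38) and -0.02 (0.02) in the same order. There the ribosomal protein genes lay near all genes or, with il1b+il6, below them. DESeq2 also tested more genes (16118, 16664, 18546 and 10771, against 4479, 7348, 8327 and 7947), so that method and genes changed together. On the genes of the edgeR fits, the distance was 0.33, 0.32, 0.12 and -0.04 by edgeR and 0.41, 0.63, 0.10 and 0.06 by limma-voom. By edgeR with no filter it was 0.57, 0.52, 0.01 and -0.00. By edgeR, above 0 lay 74 of 80 genes with il1a+tnfa and 68 of 81 with c1q+c5, while none passed the test. Below 0 lay 7.5% and 16.0% of the ribosomal protein genes, against 47.9% and 54.3% of all genes. By edgeR 0 of 80, 0 of 81, 0 of 81 and 0 of 81 were called in the order il1a+tnfa, c1q+c5, il1b+il6 and tgfb2, where 0%, 0%, 0% and 0.0126% of all genes were called. At an unadjusted p under 0.05 there were 0, 2, 0 and 0 genes, against 143, 322, 98 and 221 of all genes, and DESeq2 and limma-voom called 0 in each. Named after their values were seen, the 2 were Rpl30 at 1.06 (SE 0.41) and Rps21 at 0.89 (SE 0.39), both with an adjusted p of 0.997.

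The medians in ES-motor neurons moved with single samples. Without control C, the sample with the lowest share of ribosomal protein counts, the median was 0.14 with il1a+tnfa and 0.09 with c1q+c5. With il1b+il6 it was -0.17 without il1b+il6 A and -0.05 without control C. With tgfb2 it was 0.14 without tgfb2 B, 0.05 without tgfb2 C, 0.05 without control B and 0.09 without control D, and -0.27 without tgfb2 D. With 1 sample left out the medians reached up to 0.47 with il1a+tnfa, 0.42 with c1q+c5 and 0.26 with il1b+il6. Rpl30 had 101, 178, 65.4 and 233 CPM in the controls and 135, 337, 334 and 319 with c1q+c5, and Rps21 had 148, 114, 100 and 202 against 135, 310, 213 and 311. In both genes c1q+c5 B, C and D lay above all controls, and A, the sample with 6557 counts, lay within them. Plate 1 held the control and il1a+tnfa samples and plate 2 the other 3 treatments, so that plate and those 3 stimuli cannot be told apart. The median share of counts was 2.50% on plate 1 and 2.57% on plate 2 in ES-astrocytes, and 2.09% and 2.03% in ES-motor neurons.

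Whether the difference between the cell types changed with the treatment was tested by the 4 interaction terms together. By edgeR 0 of 82 genes were called, where 0% of all 13227 genes were. At an unadjusted p under 0.05 there were 0 of the 82 and 808 of all genes, and DESeq2 and limma-voom called 0 of the 82. The larger log2 ratio of shares with tgfb2 (-0.75) is therefore given as a value beside the others.

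Other genes of translation were read from the same fit over 5 treatments, where 13.2% of all genes were called lower and 5.45% higher. Of 7 tested elongation factor genes, 1 was higher in ES-motor neurons (Eef1e1, 0.55) and 0 lower, with a median of 0.04. Of 28 initiation factor genes, 2 were higher, Eif4e (0.85), which binds the cap, and Eif4a2 (0.50), and 2 lower, Eif5 (-0.63) and Eif3m (-0.42), with a median of -0.29. Of 7 genes tied to the ribosome or encoding fusions, 2 were lower, Pabpc1 (-1.33), which binds the poly(A) tail, and Naca (-0.50), with a median of -0.34. Of 78 mitochondrial ribosomal protein genes, 4 were lower (5.13%) and 0 higher, both below the shares of all genes, with a median of -0.23 against -0.21 for all genes. The lower ones were Mrpl33 (-0.78), Mrpl13 (-0.52), Mrps34 (-0.79) and Mrpl54 (-0.71).

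Of 20 genes of ribosome assembly, 6 were lower, against 13.2% of all genes, and 0 higher, with a median of -0.50. Npm1 (-0.81), Dkc1 (-1.56) and Rrs1 (-2.15) had the smallest p, and Dkc1 was also lower in the controls (-2.12, SE 0.46, adjusted p 0.0358). Of 9 genes of RNA polymerase I, 0 were called by edgeR, with a median of -0.24. Of 11 genes that signal to ribosomal protein mRNAs, 1 was lower, Eif4ebp1 (-1.20), and 0 higher, with a median of 0.29. In the stimulus comparisons 0 genes of these lists were called by edgeR.

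Markers of cell type and division moved with the comparison of the cell types. Of the motor neuron genes 8 of 9 were higher, as were 6 of 9 general neuron genes (Nefl, 3.71). Of 7 tested astrocyte genes 6 were lower (Fabp7, -5.79) and Sox9 was higher (1.75). Of 5 tested genes of neural progenitors 4 were lower (Hes1, -5.83), and of 3 tested genes of fibroblasts or mesenchyme 3 were lower (Dcn, -9.49). The 7 genes of that list, tested or not, had a summed median of 203 CPM in ES-astrocytes (37.0 to 1120) against 0 in ES-motor neurons (0 to 5.92). Of 4 oligodendrocyte lineage genes 0 were called, the 1 tested microglia gene, Csf1r, was not called, and no gene of pluripotent cells passed the filter.

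All 5 genes of dividing cells were lower, with a median log2 fold change of -7.55. Their summed CPM had a median of 776 in ES-astrocytes (439 to 1180) against 3.64 in ES-motor neurons (0 to 18.3), with Top2a most often the most abundant in ES-astrocytes. Within ES-astrocytes, the share of ribosomal protein counts had an r of -0.389 and a rho of -0.402 with that sum over 20 samples, and within ES-motor neurons -0.257 and -0.158. The part of division, of other cell types or of library composition in the lower ribosomal protein levels was not tested.

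Pyrimidine motifs were counted around the annotated start of transcription. Of the 85 genes 65 had an entry in the RefSeq promoter sequences (GRCm38.p6). CTTTC was found on the sense strand within 30 bases of the start in 21 of them (32.3%), against 7.78% of all 27025 genes, and TCTTT in 15 (23.1%) against 7.03%. The 2 motifs overlap in TCTTTC, and 24 genes (36.9%, against 12.1% of all) held at least 1. On either strand CTTTC was found in 41.5% against 14.5%, and TCTTT in 27.7% against 13.6%. Of the 21 genes with an entry that were called lower in ES-motor neurons 6 held CTTTC (28.6%), and of the 44 not called 15 did (34.1%). The 30 bases around the start are shown for the stalk genes Rplp0 and Rplp2, for Rps2, Rps9 and Rpl12, called lower, and for Rps6, not called, with either motif in capitals. They lie at chr5:115559452-115559481 (Rplp0), chr7:141447636-141447665 (Rplp2), chr17:24720048-24720077 (Rps2), chr7:3704026-3704055 (Rps9) and chr2:32961697-32961726 (Rpl12), all on the plus strand, and at chr4:86857353-86857382 on the minus strand (Rps6).
Rplp0: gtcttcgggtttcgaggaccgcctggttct
Rplp2: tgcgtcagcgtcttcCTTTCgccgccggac
Rps2: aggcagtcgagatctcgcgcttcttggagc
Rps9: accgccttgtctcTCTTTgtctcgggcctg
Rpl12: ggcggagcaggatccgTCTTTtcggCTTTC
Rps6: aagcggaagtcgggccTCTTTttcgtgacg
A match is a description of these letters only, and genes without one in these 30 bases, such as Rplp0 and Rps2, were among those called.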

How the data were processed

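The counts per gene were taken as deposited by the authors, whose processing notes name STAR and DESeq2 without versions. The genome build, the counting program, its strand setting and its handling of reads with several matches could not be learned from the sources. Gene symbols, types and positions came from GENCODE M21 (GRCm38), which held 55141 of the 55487 gene IDs. The ribosomal protein genes and the other gene lists were chosen with earlier results of these data known.

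Tests were the quasi-likelihood F tests of edgeR 4.0.16 in R 4.3.3 (filterByExpr, TMM scaling, robust glmQLFit), and p-values were adjusted by Benjamini-Hochberg over all genes tested, with calls at an adjusted p of 0.05 or less. limma 3.58.1 and DESeq2 1.42.0 (alpha 0.1 for independent filtering) served as alternatives. Tables and figures used Python 3.11.15 with numpy 2.4.6, pandas 2.3.3, scipy 1.17.1 and matplotlib 3.10.9. The edgeR test was tried on counts simulated from the levels, spread and depth of these data. Samples were drawn independently there, so that trial cannot bear on cultures shared between samples, and its outcome is not given here. No molecular tags were counted, so intervals (Wilson, 95%) cover counting error only.

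Genes were named by rule: fixed roles and paralog pairs, and the 3 called genes of smallest p in each direction. The rule also took the 3 of highest and lowest level per length and those not counted or failing the filter. In each other list it took up to 3 genes of smallest p. For translation initiation and mitochondrial ribosomal proteins all called genes were named. A gene that this rule names is not reported here. The other lists were translation elongation and initiation, genes associated with the ribosome or encoding fusions, ribosome assembly, RNA polymerase I, signalling to ribosomal protein mRNAs, mitochondrial ribosomal proteins and markers of cell types and of division.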

Additional observations from a re-analysis of the deposited data

Results flagged for a closer look

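In each group of 4 samples, a sample was picked out when its gap to the nearest of the others took up most of the range of the group (Dixon's test). Of 110 combinations of group and measure, 5 were picked out, and chance gives about 1 in 20 groups. The share of counts on genes of mitochondrial DNA was 1.12% in ES-astrocyte control A, below the other 3 controls. Rplp2 had 30.8 CPM in ES-motor neuron control C, below the other 3 controls. Rps9 had 646 CPM in ES-motor neuron il1b+il6 A, above the other 3 samples of that group. The share of counts on ribosomal protein genes was 2.23% in ES-motor neuron tgfb2 D, above the other 3, and the share of those counts on 40S genes was 44.4% in ES-motor neuron tgfb2 B, below the other 3.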

How the results depend on the processing

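The count of 28 ribosomal protein genes called between the cell types over 5 treatments became 8 without the samples under 200000 counts and 0 with a log2 fold change above 1 in size added, and ran from 12 to 36 when 1 sample was left out. The share called lower was 34.1% against 13.2% of all genes, and became 8.54% against 10.4% without those samples. The median log2 fold change over the ribosomal protein genes was then -0.31, against -0.11 over all genes. The distance between these medians was -0.20, against -0.19 with all samples. With the limit on fold change 0 of 82 ribosomal protein genes were called lower, against 1460 of 13227 genes. The cause was not tested. It stayed within 1.5 times of 28 with DESeq2 (36), limma-voom (28, of which 27 lower), RLE (32), total counts (26), TMM factors without these genes and mitochondrial DNA (22) and no filter (21). In the other comparisons and the interaction the count was 0 with each alternative run, and 0 to 0 when 1 sample, or for the interaction 1 letter, was left out. The second index primer as a term, run within each cell type, also gave 0.

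With the letter as a replicate block, 34 genes were called over 5 treatments, 33 lower and 1 higher (Rpl22l1), and 0 in the other comparisons. Samples of the same letter were not shown to be paired, since no comparison had all 4 correlations above 0.1. That limit cannot exclude pairing. In ES-astrocytes the correlation was 0.5487 for letter A with tgfb2 and -0.2978 for letter B with il1a+tnfa, each against control. The main fits had no term for the letter or for a shared culture, although the paper describes both cell types as sorted after co-culture.

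The median over all genes between the cell types was -0.21, and moved to 0.38 with limma-voom, -0.14 with DESeq2, -0.26 with RLE or total counts and -0.11 without the samples under 200000 counts. The median over the ribosomal protein genes stayed below 0 in each of these. Leaving out letter C (19 called) and, for the interaction, ES-astrocyte control A (0 called) were chosen after seeing the data.

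Depth limits the 5 ES-motor neuron samples under 200000 counts most, where genes of low level have few counts or 0.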

Other observations

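Within ES-astrocytes, the share of ribosomal protein counts on 40S genes was higher where the 100 most abundant genes took more of the counts (r 0.742 and rho 0.59 over 20 samples, and r 0.652 without the 2 farthest samples), while the share of all counts on ribosomal protein genes was lower there. In ES-motor neurons the first relation had r 0.386 and rho 0.502 over 20 samples, r 0.27 without the 2 farthest samples, and r 0.298 and rho 0.292 in the 15 samples of at least 200000 counts. The points share libraries and totals, and these values are descriptions.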
